A study of Mus musculus with 531 samples.

Results

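Transcripts of Tet1, Tet2, Tet3 and Tdg were followed in single cells of early mouse embryos. These 4 genes, taken by their identifiers from a table of 22084 genes, were described by stage, embryo and lineage. The cells came from C57Bl/6Babr embryos at embryonic days 4.5, 5.5 and 6.5 (E4.5, E5.5 and E6.5), with no genetic change and no treatment in any group, and their RNA was sequenced with the full-length Smart-seq2 protocol. The labels give 264 cells: 91 from 5 embryos at E4.5, 80 from 1 embryo at E5.5 and 93 from 2 embryos at E6.5. A minimum of 50000 reads and of 2000 genes with a read left 75, 59 and 83 cells (217 of 264). Outer trophectoderm was removed at E4.5 by immunosurgery, and extraembryonic tissues were separated from the epiblast at E5.5 and E6.5 by hand, so each group holds only the cells that this dissection left. The sex of the embryos is not recorded.

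The 3 TET enzymes oxidise 5-methylcytosine to 5-hydroxymethylcytosine and on to formyl- and carboxylcytosine. TDG, thymine DNA glycosylase, cuts out the formyl and carboxyl forms, and base excision repair then fills in an unmodified cytosine. Tet1 and Tet2 are the forms known from pluripotent cells, and Tet3 is known from the oocyte and zygote and from differentiated cells.

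On GRCm38, Tet1 (ENSMUSG00000047146) lies at chr10:62804570-62908996 on the minus strand and Tdg (ENSMUSG00000034674) at chr10:82629828-82650799 on the plus strand. Tet2 (ENSMUSG00000040943) lies at chr3:133463679-133545139 and Tet3 (ENSMUSG00000034832) at chr6:83362373-83459084, both on the minus strand. Counts on Tdg are less certain than the others, since the annotation holds 2 processed pseudogenes copied from it, Gm9855 on chromosome 10 and Tdg-ps on chromosome 15. Neither is a row of the table, and how reads shared with them were counted is not given in the sources used here.

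The start regions of Tet1 and Tet2 are shown because these are the members with calls in the comparisons below and because CpG dinucleotides, the substrate of the pathway, are dense in one of them. Each run covers 250 bases before and 50 bases after the start of the gene in RefSeq on GRCm38.p6, 5′ to 3′ on the strand of the gene, with CpG dinucleotides in capitals. The window of Tet1 is chr10:62887275-62887574 (minus), which lies inside the longer gene span of the annotation above. The window of Tet2 is chr3:133544341-133544640 (minus), which also lies inside the gene span given above.
Tet1: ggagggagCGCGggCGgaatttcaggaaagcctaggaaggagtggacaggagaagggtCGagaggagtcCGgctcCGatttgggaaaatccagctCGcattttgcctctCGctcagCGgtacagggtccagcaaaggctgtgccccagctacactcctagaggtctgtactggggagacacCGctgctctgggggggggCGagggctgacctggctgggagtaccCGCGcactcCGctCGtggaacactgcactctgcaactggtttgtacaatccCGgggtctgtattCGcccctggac
Tet2: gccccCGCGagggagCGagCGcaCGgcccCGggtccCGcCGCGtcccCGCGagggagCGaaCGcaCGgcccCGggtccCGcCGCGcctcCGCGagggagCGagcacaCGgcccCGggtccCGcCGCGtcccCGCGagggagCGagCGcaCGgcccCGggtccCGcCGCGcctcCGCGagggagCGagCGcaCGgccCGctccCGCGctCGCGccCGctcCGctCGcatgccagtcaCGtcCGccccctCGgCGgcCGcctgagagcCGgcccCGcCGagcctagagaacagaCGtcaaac
The Tet1 window holds 17 CpGs and the Tet2 window 57. At least 17 were found in 31.4% of 32851 promoter windows of the same length and at least 57 in 0.152%, against a median of 7. The windows of Tet3 and Tdg hold 22 and 26. CpG dinucleotides read the same on both strands. No methylation was read here, so these counts describe the sequence only.

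Lineages were assigned to clusters of cells by marker genes, and the clusters were named "-like" for that reason. At E4.5, 19 cells were epiblast-like (8 of 10 epiblast markers raised) and 51 were endoderm-like, in clusters of 43 and 8 cells with 10 and 7 of 13 endoderm markers raised. A cluster of 5 cells with 7 epiblast and 9 endoderm markers raised was left unnamed. E5.5 gave 51 epiblast-like cells, in clusters of 40, 4 and 7 cells with 8, 4 and 5 of 10 epiblast markers raised. A further 8 were endoderm-like, with 9 of 13 endoderm markers raised. E6.5 gave 23 cells of an epiblast-like cluster and 22 of an endoderm-like one. A further 23, all from embryo 2, were mesoderm-like, and 15 stayed unnamed. Mesp1 and T, among the leading genes of the mesoderm-like cluster, were read in each of its cells. It had 6 of 9 primitive streak, 4 of 13 endoderm and 3 of 10 epiblast markers raised. Embryo is the replicate throughout, and sums of at least 3 cells were used, which leaves out the 2 epiblast-like cells of E4.5 embryo 5. Named groups therefore hold 4 epiblast-like and 5 endoderm-like embryos at E4.5, 1 of each at E5.5, and 2 epiblast-like, 2 endoderm-like (19 and 3 cells) and 1 mesoderm-like embryo at E6.5.

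Depth was 112008 to 8904445 reads in the kept cells, with stage medians of 918469 (E4.5), 1511811 (E5.5) and 1107378 (E6.5), and with medians of 6985, 5242 and 9304 detected genes. The epiblast-like cells of E6.5 held more reads of endoderm and trophoblast markers than those of E4.5 and E5.5. Apoa1 and Ttr, secreted proteins of the visceral endoderm, were read in 23 of 23 E6.5 epiblast-like cells at medians of 765 and 901 CPM (counts scaled to the total reads of the cell), whereas their medians were 0 in the E4.5 and E5.5 epiblast-like cells. The summed endoderm markers had a median of 3975 CPM in E6.5 epiblast-like cells (426 to 8529), 487 CPM at E5.5 (0.451 to 1829, with 7 of 13 at 0 in all cells) and 1847 CPM at E4.5 (810 to 4251). Apoe alone, 1 of these markers, had medians of 1430 CPM at E6.5, 481 CPM at E5.5 and 1777 CPM at E4.5. Of 8 trophoblast markers, 7 were read in at least 50% of cells in both lineages at E6.5, against 0 in the epiblast-like cells of E4.5 and E5.5. Their sum in the E6.5 epiblast-like cells was 4.94 to 472 CPM with a median of 126, against 0 to 39.1 CPM and a median of 0 at E4.5. Prl8a2, a decidual hormone gene, was read in 19 of 23 epiblast-like and 19 of 22 endoderm-like cells at E6.5, and in none at E4.5 or E5.5. The E6.5 endoderm-like cells also held epiblast markers. Of 10 such markers, 8 were read in at least 50% of these cells, against 2 at E4.5 and 2 at E5.5. Their sum had a median of 600 CPM at E6.5, against 693 CPM at E4.5 and 146 CPM at E5.5. The 10 leading genes of the E6.5 epiblast-like cluster included Gjb5, Itga3, Nanog and Wnt7b. Of the 10 only Nanog is an epiblast marker of the list, while Gjb5 and Wnt7b are known from the trophoblast and extraembryonic ectoderm. The name of this cluster rests on 5 of 10 epiblast markers raised in it, against 2 of 8 trophoblast, 3 of 9 primitive streak and 1 of 13 endoderm markers. Leiden clustering left its 23 cells without a name, as it did the 51 epiblast-like cells of E5.5. Comparisons of these cells with the E4.5 epiblast-like cells are therefore between clusters named by that marker count. The part of these transcripts in the E6.5 values below was not tested. The cell numbers of the 8 E5.5 endoderm-like cells were all multiples of 12, and those of the 23 mesoderm-like cells left remainders of 0, 10 or 11 on division by 12, numbers that no epiblast-like cell of these stages had, so a position that follows the number and the lineage cannot be told apart. The labels also carry a prefix, whose meaning they do not give: P1 (embryos 1 and 2) and P2 (embryos 3 to 5) at E4.5, P11.P6.P10 at E5.5 and P0 at E6.5. No stage shares one with another, so prefix and stage cannot be told apart either.

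**Figure D1:**
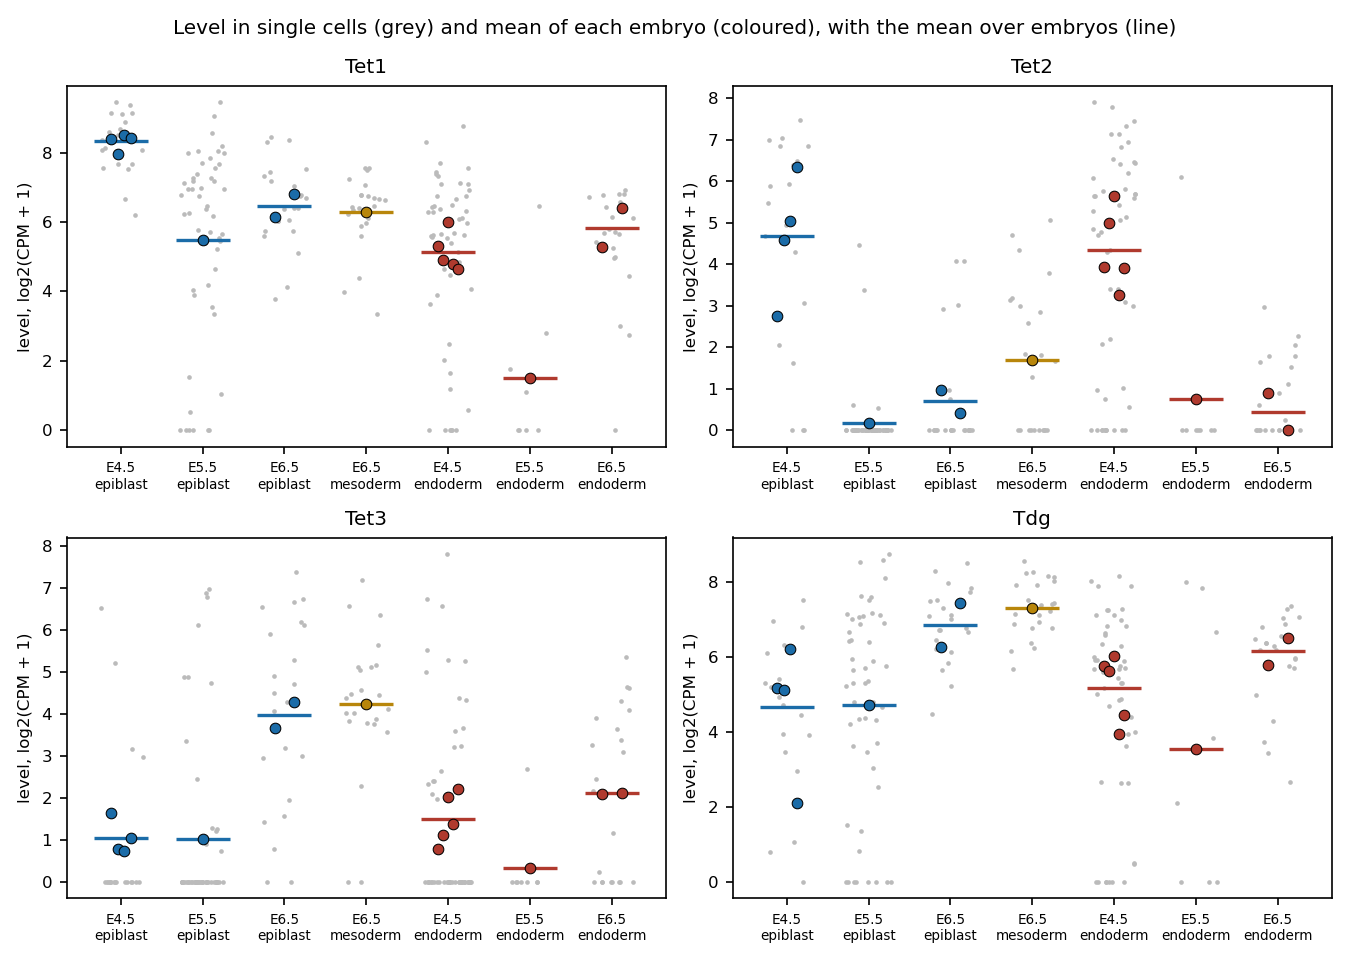
Level of each gene, log2(CPM + 1), by stage and lineage: single cells as grey points, the mean of each embryo as a coloured point and the mean over embryos as a line (axis labels leave out "-like"). The 4 embryo means of Tet1 in E4.5 epiblast-like cells lie at 7.96 to 8.50, above those of every other group, and Tet2 is near 0 in most cells after E4.5.

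Levels are means of log2(CPM + 1) over the cells of an embryo, then means ± SD over embryos, and the CPM of an embryo comes from its summed reads. Differences were tested on counts summed per embryo and lineage, across all genes, with edgeR's quasi-likelihood test. Between epiblast-like and endoderm-like cells of E4.5, 962 of 9224 genes passed an adjusted p of 0.05 (10.4%; 4.39% higher and 6.04% lower), and 1 of the 4 members did, higher. In the epiblast-like cells 335 of 13050 genes (2.57%; 0.874% higher and 1.69% lower) passed between E6.5 and E4.5, with 2 of the 4 members, both lower. Between E5.5 and E4.5, 63 passed (0.483%; 0.207% higher and 0.276% lower), with 0 of the 4. In the endoderm-like cells 661 of 13453 genes (4.91%; 2.79% higher and 2.12% lower) passed between E6.5 and E4.5, with 1 of the 4, lower. Between the lineages of E6.5, edgeR called 0 of 12319 genes (0%), with 341 at an unadjusted p under 0.05, where DESeq2 called 36 and limma 0. The lineage markers were thus not called in edgeR either, among them Ttr, with medians of 4305 CPM in endoderm-like and 901 CPM in epiblast-like cells. A member that did not pass in this comparison is therefore not shown to be alike in both lineages. All 5 comparisons share E4.5 embryos, the last through 1 fit. The direction of these calls depends on the scale: limma on mean levels called 1767 genes higher and 315 lower in E6.5 than in E4.5 epiblast-like cells and 1437 and 253 in the endoderm-like cells, and DESeq2 called 442 and 702, and 447 and 656. Summed RNA does not tell fewer transcribing cells from less RNA per cell, so shares of cells with a read are given as well.

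**Figure D2:**
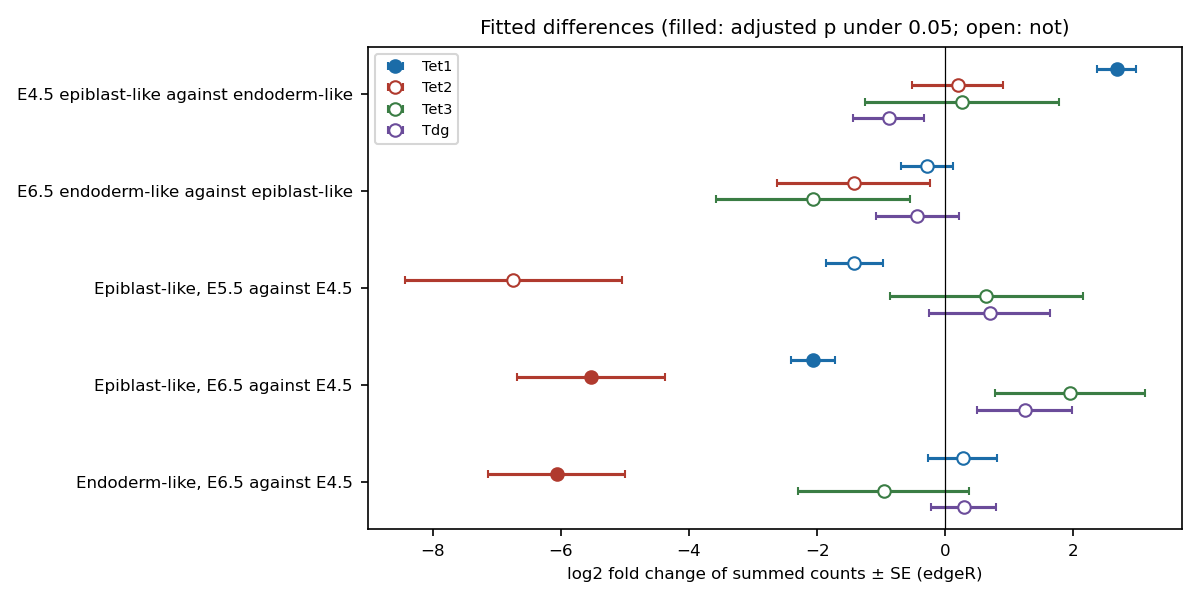
Fitted log2 fold change (± SE) of each member in the 5 comparisons. The rows are the comparisons and the colours the genes, and filled points passed an adjusted p of 0.05: Tet1 in 2 comparisons, at 2.68 and -2.07, and Tet2 in 2, at -5.54 and -6.07.

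Tet1, the most read of the TET genes in the epiblast-like cells, was 6.41-fold higher in epiblast-like than in endoderm-like cells at E4.5. Its level in the epiblast-like cells was 8.40, 7.96, 8.50 and 8.43 in embryos 1 to 4, a mean of 8.32 ± 0.25 (SD, n = 4). Their endoderm-like counterparts had 5.30, 4.92, 6.00, 4.78 and 4.66 in embryos 1 to 5, a mean of 5.13 ± 0.54 (SD, n = 5). The embryo means of the lineages did not overlap, and Tet1 was higher in the epiblast-like cells in 4 of 4 embryos. In summed reads Tet1 made up 283 to 403 CPM in the epiblast-like cells. It made up 31.5 to 82.5 CPM in the endoderm-like cells. The log2 fold change was 2.68 ± 0.31 (SE; 95% interval 2.005 to 3.35), with an adjusted p of 0.000386, in a fit of embryos 1 to 4, which have both lineages. It passed under all 14 alternative settings, with log2 fold changes of 2.43 to 3.07 and adjusted p up to 0.00462. The mean difference of the level was 3.07 in the embryos of prefix P1 and 3.08 in those of prefix P2, with 2 embryos each. The 2 epiblast-like cells of embryo 5, outside these sums, had levels of 7.56 and 7.67. Within the endoderm-like cells, the cluster of 8 cells with few detected genes (median 3579.5, against 7197 in the other 43) had a mean Tet1 level of 2.43 against 5.45, and without those 8 cells the log2 fold change was 2.56.

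Tet1 was lower in the epiblast-like cells of E6.5 than in those of E4.5. The E6.5 cells also held trophoblast markers, with Elf5 read in 20 and Cdx2 in 19 of 23. At E6.5 the epiblast-like level was 6.13 in embryo 1 and 6.81 in embryo 2, below all 4 embryos of E4.5, with 77.03 and 109 CPM. The fold change of summed counts was 4.197-fold lower (log2 -2.07 ± 0.34 SE, 95% interval -2.82 to -1.32, adjusted p = 0.00853). The call passed in 14 of 15 alternatives, and without E6.5 embryo 1 the log2 fold change was -1.86 and the adjusted p 0.106. The E5.5 embryo lay between in summed reads, at 126 CPM, but its level over 51 cells, 5.49, was below both E6.5 embryos. Its difference from E4.5 (log2 -1.42 ± 0.44 SE, 95% interval -2.38 to -0.45, adjusted p = 0.241) did not pass, whereas DESeq2 gave an adjusted p of 0.0111 and limma 0.0254. These fits give the only E5.5 embryo the spread of the rest. Cells of this embryo spread widely, from 0 to 9.44 with a median of 6.37, and 45 of 51 held a read. Its 11 cells in the clusters with few detected genes (medians of 3164 and 3463 genes) had mean Tet1 levels of 3.995 and 3.803 against 5.93 in the other 40.

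In the endoderm-like cells the change of Tet1 between E4.5 and E6.5 did not pass the test. The E6.5 endoderm-like cells also held epiblast markers, with Sox2 read in 21 and Slc7a3 in 22 of 22, against 11 and 8 of 51 at E4.5. The part of such reads in the Tet1 values was not tested. The E6.5 endoderm-like level was 5.27 in embryo 1 (19 cells), inside the range of E4.5, and 6.399 in embryo 2 (3 cells), above it, with a log2 fold change of 0.27 ± 0.53 (SE; 95% interval -0.84 to 1.38, adjusted p = 0.843). The 8 endoderm-like cells of E5.5 had the lowest Tet1 of any group, with a level of 1.52, 8.95 CPM, and reads in 4 of 8 cells. Their median number of detected genes was 4223.5, and 4 of the 8 passed the stricter limits of 200000 reads and 4000 genes. Between the lineages of E6.5 the endoderm-like cells differed from the epiblast-like cells by -0.28 ± 0.41 (log2, SE; 95% interval -1.17 to 0.61, adjusted p = 1). The lineage effect at E6.5 minus that at E4.5, endoderm-like against epiblast-like, was 2.41 ± 0.51 for Tet1 (log2, SE; adjusted p = 0.0588, where 88 of 12319 genes, 0.714%, passed, 0.317% higher and 0.398% lower), so a change of the gap between the stages missed the threshold in edgeR. It passed in 3 of 14 alternatives (adjusted p from 0.000903 to 0.408). Mesoderm-like cells, from E6.5 embryo 2 alone, had a Tet1 level of 6.28, between the epiblast-like levels of the E6.5 embryos. Ordered by level, the 5 groups between E4.5 epiblast-like and E5.5 endoderm-like cells (6.47 to 5.13) have neighbours that do not differ beyond the spread of their embryos.

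Tet2, which lacks the CXXC domain that Tet1 and Tet3 carry, was shared by both lineages at E4.5 and scarce in both after it. At E4.5 its epiblast-like level was 2.76, 4.59, 5.05 and 6.35 in embryos 1 to 4 (4.69 ± 1.49 SD, n = 4). The endoderm-like level was 3.93, 4.98, 5.64, 3.25 and 3.92 in embryos 1 to 5 (4.34 ± 0.95 SD, n = 5). The ranges overlap, Tet2 was higher in the epiblast-like cells of 1 of 4 embryos by mean level and of 2 of 4 by summed reads (embryo 2, 60.8 against 35.5 CPM, and embryo 4, 81.1 against 23.7 CPM), and the log2 fold change of 0.19 ± 0.71 (SE; 95% interval -1.37 to 1.76, adjusted p = 0.908) leaves room for a difference in either direction. The level difference, epiblast-like minus endoderm-like, was -1.17 and -0.39 in embryos 1 and 2 (prefix P1) and -0.59 and 3.10 in embryos 3 and 4 (prefix P2), so embryo 4 alone was positive.

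After E4.5 little Tet2 was read. The epiblast-like sums held 25, 125, 267 and 456 Tet2 reads in embryos 1 to 4 of E4.5 (13.53, 60.8, 75.01 and 81.1 CPM), and 27 and 11 reads in embryos 1 and 2 of E6.5 (2.12 and 0.60 CPM) although these sums were deeper. E6.5 embryos lay below every E4.5 embryo, with levels of 0.98 and 0.42. The fitted fold change was 46.4-fold lower (log2 -5.54 ± 1.15 SE, 95% interval -8.06 to -3.01, adjusted p = 0.0309). This call was less firm than that of Tet1, since it passed in 10 of 15 alternatives. It was lost without E4.5 embryo 3 (adjusted p = 0.0768), E4.5 embryo 4 (0.0551), E6.5 embryo 1 (0.0837) or E6.5 embryo 2 (0.264), and with the 2 cells of E4.5 embryo 5 added (0.115), with the same direction in each. Leaving out either E6.5 embryo gave log2 fold changes of -6.73 (embryo 1 left out) and -4.86 (embryo 2). At E5.5 the epiblast-like cells held 40 Tet2 reads in 79265663 (0.505 CPM, level 0.18), in 4 of 51 cells. Their log2 fold change against E4.5 was -6.74 ± 1.70 (SE; 95% interval -10.47 to -3.02, adjusted p = 0.163) and did not pass, while it passed in edgeR with no filter on low counts (adjusted p = 0.0320) and in DESeq2 (adjusted p = 2.35e-07).

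The endoderm-like cells showed the same direction for Tet2. The endoderm-like sums of E4.5 held 63.2, 35.5, 79.3, 23.7 and 45.4 CPM in embryos 1 to 5. E6.5 embryo 1 held 0.948 CPM (41 reads), and the 3 cells of embryo 2 held 0 of 2805869 reads, which allows up to 1.07 CPM. E6.5 was 67.04-fold lower in the fit (log2 -6.07 ± 1.07 SE, 95% interval -8.29 to -3.84, adjusted p = 0.00110), a size that rests on few E6.5 reads. With embryo 2 of E6.5 left out the log2 fold change was -5.50 (adjusted p = 0.0347). Leaving out embryo 1, which leaves a sum with 0 Tet2 reads, gave -12.02 (adjusted p = 0.0142), a value that depends on the prior count and is no bound. The call passed in 16 of 17 alternatives, and with Leiden clusters, which named 14 endoderm-like cells at E6.5, the log2 fold change was -4.38 (adjusted p = 0.0748). In the E5.5 endoderm-like cells all 94 Tet2 reads came from 1 of the 8 cells. Mesoderm-like cells of E6.5 embryo 2 held 113 Tet2 reads (6.80 CPM) in 13 of 23 cells, against 0.60 CPM in the epiblast-like cells of the same embryo, and with 1 embryo this difference has no replicate check. Between the lineages of E6.5 the log2 fold change, endoderm-like against epiblast-like, was -1.43 ± 1.20 (SE; 95% interval -4.03 to 1.17, adjusted p = 1). It was -0.94 with embryo 2 of E6.5 left out and -5.15 with embryo 1 left out, where the endoderm-like sum left has 0 reads. In the order of levels, the E4.5 lineages led, and the gap from 4.34 to the next, 1.71 in the mesoderm-like cells, was wider than the SD over embryos. The other 4 groups, at 0.18 to 0.76, lay within the spread of the E6.5 embryos.

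Tet3, the TET enzyme of the oocyte and zygote, was sparse at E4.5 and E5.5 and was read in most epiblast-like cells at E6.5. Its level in the epiblast-like cells of E4.5 was 1.63, 0.79, 0.74 and 1.04 in embryos 1 to 4 (1.05 ± 0.41 SD, n = 4), with a read in 4 of 19 cells. At E5.5 it was 1.03, with a read in 14 of 51 cells. At E6.5 it was 3.67 in embryo 1 and 4.29 in embryo 2, above every E4.5 embryo, with a read in 21 of 23 cells. The summed reads gave a weaker contrast (15.7, 1.95, 1.69 and 8.72 CPM at E4.5, 20.6 and 38.3 CPM at E6.5), and the log2 fold change of 1.95 ± 1.18 (SE; 95% interval -0.63 to 4.52, adjusted p = 0.385) did not pass. Leaving out 1 embryo moved it as low as 1.49 (embryo 2 of E6.5) and as high as 2.67 (embryo 1 of E4.5). Limma on the mean levels, which weigh each cell alike, gave 2.93 (adjusted p = 0.0113). That is the fit that called most genes higher at E6.5, where the median cell held 9304 genes against 6985 at E4.5.

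In the endoderm-like cells Tet3 ranged from 0.79 to 2.21 over the 5 embryos of E4.5 (1.51 ± 0.60 SD, n = 5) and was 2.104 and 2.12 in the E6.5 embryos. The fitted difference between these stages was -0.96 ± 1.34 (log2, SE; adjusted p = 0.762), and without E4.5 embryo 5 it turned to 0.42 (adjusted p = 0.932). At E4.5 the lineages differed by 0.26 ± 1.52 (log2, SE; 95% interval -3.08 to 3.60, adjusted p = 0.943). At E6.5 Tet3 was lower in the endoderm-like than in the epiblast-like cells of both embryos, with 4.81 against 20.6 CPM in embryo 1 and 7.48 against 38.3 CPM in embryo 2, but the log2 fold change of -2.07 ± 1.51 (SE; 95% interval -5.35 to 1.22, adjusted p = 1) did not pass. Mesoderm-like cells had a level of 4.23, within the range of the E6.5 epiblast-like embryos, and 32.1 CPM. By level, the mesoderm-like and epiblast-like groups of E6.5 came first, and the embryo values of the epiblast-like group did not overlap those of the next, the endoderm-like cells of E6.5. From there down to the E4.5 epiblast-like cells neighbours overlapped.

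Tdg, the glycosylase that acts after the TET enzymes, was read in all groups and passed the test in none of the 5 comparisons. Its epiblast-like level at E4.5 was 5.18, 5.11, 6.21 and 2.104 in embryos 1 to 4 (4.65 ± 1.77 SD, n = 4), lowest in embryo 4, at 6.94 CPM against 38.9 to 96.9 CPM in the others. The endoderm-like level was 5.76, 5.63, 6.01, 3.95 and 4.44 in embryos 1 to 5 (5.16 ± 0.91 SD, n = 5). The log2 fold change between them was -0.88 ± 0.56 (SE; 95% interval -2.11 to 0.34, adjusted p = 0.370), and without embryo 4 it was -0.38 (adjusted p = 0.745). At E5.5 the epiblast-like level was 4.72 and the endoderm-like level 3.55. At E6.5 the epiblast-like level was 6.26 in embryo 1 and 7.45 in embryo 2, both above every E4.5 embryo, with 81.2 and 172 CPM, of which only the value of embryo 2 was above the E4.5 range. The log2 fold change against E4.5 was 1.24 ± 0.74 (SE; 95% interval -0.39 to 2.87, adjusted p = 0.381), from 0.65 (without E6.5 embryo 2) to 1.84 (without E4.5 embryo 3) with 1 embryo left out. The endoderm-like level at E6.5 was 5.78 and 6.51 (log2 fold change against E4.5 of 0.29 ± 0.50 SE, adjusted p = 0.818). Mesoderm-like cells had the highest Tdg of the 7 groups in summed reads, 206 CPM, with a read in 23 of 23 cells and a level of 7.31, against 7.45 in the epiblast-like cells of the same embryo. The lineages of E6.5 differed by -0.44 ± 0.65 (log2, SE; 95% interval -1.84 to 0.97, adjusted p = 1). In the order of levels, groups of more than 1 embryo that stood next to each other overlapped in their embryo values.

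**Figure D3:**
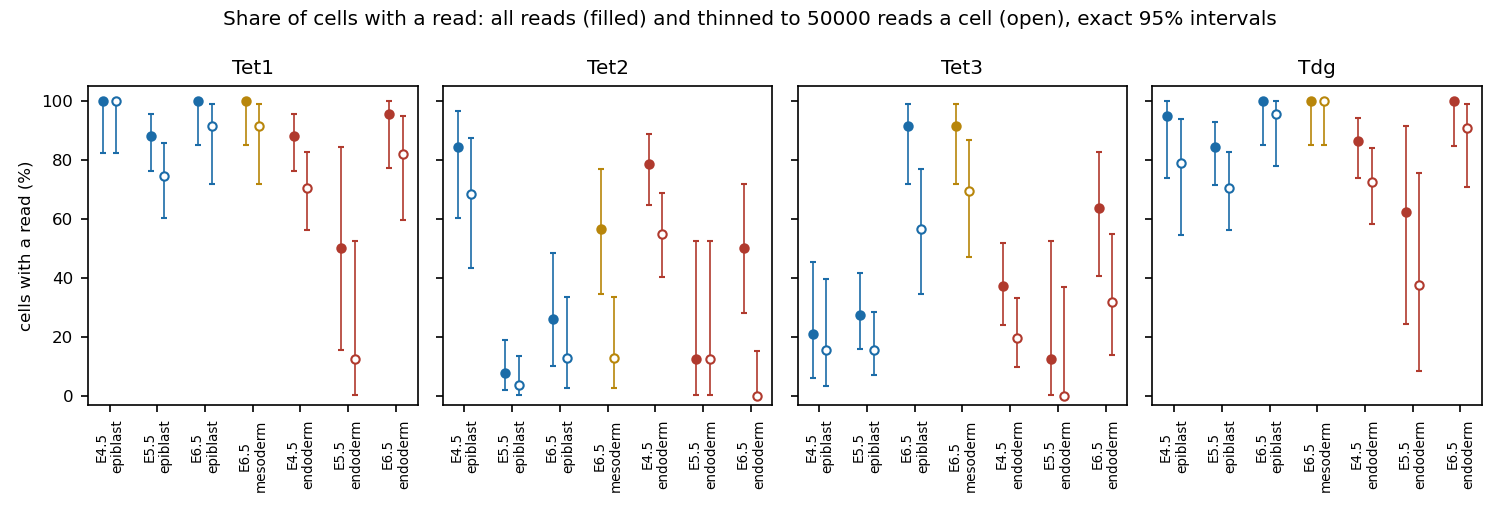
Share of cells with at least 1 read of each gene by stage and lineage, with exact 95% binomial intervals, from all reads (filled) and after thinning each cell to 50000 reads (open). Tet2 was read in 84.2% of E4.5, 7.84% of E5.5 and 26.1% of E6.5 epiblast-like cells, and Tet3 in 91.3% of E6.5 epiblast-like cells.

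Shares of cells with a read depend on depth, so each cell was also thinned to 50000 reads. No kept cell was shallower. Tet1 was read in 19 of 19 E4.5 epiblast-like cells at both depths (100%, exact 95% interval 82.4% to 100%). Among the endoderm-like cells of E4.5 it was read in 88.2% (76.1% to 95.6%) and, thinned, in 70.6% (56.2% to 82.5%). Tet2 was read in 84.2% of E4.5 epiblast-like cells (60.4% to 96.6%) and thinned in 68.4% (43.4% to 87.4%), against 7.84% (2.18% to 18.9%) and thinned 3.92% (0.478% to 13.46%) at E5.5. In the E6.5 epiblast-like cells it was read in 26.1% (10.2% to 48.4%) and, thinned, in 13.04% (2.78% to 33.6%). At E6.5, Tet2 was read in 50% of endoderm-like cells (28.2% to 71.8%) but, thinned, in 0 of 22 (up to 15.4%), and those cells carried at most 2.96 on the log2(CPM + 1) scale. The share of epiblast-like cells with Tet3 went from 21.1% (6.05% to 45.6%) at E4.5 to 91.3% (71.96% to 98.9%) at E6.5, and thinned from 15.8% (3.38% to 39.6%) to 56.5% (34.5% to 76.8%). Mesoderm-like cells held Tet3 in 91.3% (71.96% to 98.9%) and, thinned, in 69.6% (47.1% to 86.8%). Tdg was read in 94.7% of E4.5, 84.3% of E5.5 and 100% of E6.5 epiblast-like cells. The intervals cover counting error only, since reads carry no molecular identifiers and cells of 1 embryo are not independent.

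**Figure D4:**
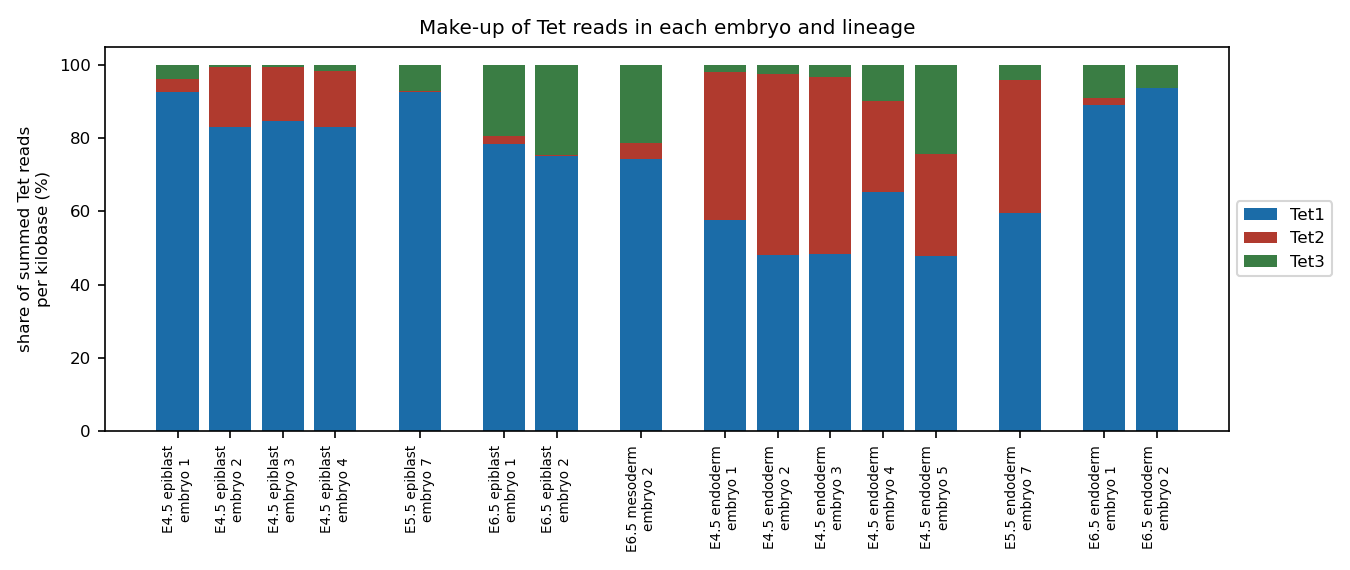
Make-up of the Tet reads per kilobase of exon in each embryo and lineage, stacked to 100%. Tet1 holds 83.01% to 92.8% in the E4.5 epiblast-like embryos and 47.9% to 65.3% in the E4.5 endoderm-like embryos, and Tet3 holds 19.5% and 24.5% in the E6.5 epiblast-like embryos.

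Levels of different genes were compared per kilobase of annotated exon (15.5 kb for Tet1, 16.9 kb for Tet2, 16.7 kb for Tet3 and 5.37 kb for Tdg), from CPM of summed reads. In E4.5 epiblast-like cells Tet1 made up 85.9% ± 4.66 of the Tet reads per kilobase (SD, n = 4), Tet2 12.5% ± 6.13 and Tet3 1.603% ± 1.63. In the endoderm-like cells of that stage Tet1 made up 53.4% ± 7.83 (SD, n = 5), Tet2 38.2% ± 11.5 and Tet3 8.35% ± 9.51. The Tet3 share was 1.92%, 2.42%, 3.20%, 9.85% and 24.4% in embryos 1 to 5, and 71.9% of the Tet3 reads of embryo 5 came from 1 cell. The Tet1 shares of the lineages did not overlap between embryos. At E6.5 the epiblast-like embryos held 78.6% and 75.1% Tet1, 1.98% and 0.382% Tet2, and 19.5% and 24.5% Tet3. The mesoderm-like cells held 74.2%, 4.46% and 21.3%. The endoderm-like embryos of E6.5 held 89.2% and 93.7% Tet1 and 9.02% and 6.28% Tet3.

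The total of the 3 Tet genes per kilobase was highest in the E4.5 epiblast-like cells, at 26.9 ± 4.46 CPM per kb (SD, n = 4; 22.05 to 31.4), against 7.71 ± 2.57 in the E4.5 endoderm-like cells (n = 5; 4.24 to 9.70). It was 8.77 CPM per kb in the E5.5 epiblast-like cells and 6.34 and 9.36 in the E6.5 epiblast-like embryos. Tdg per kilobase was below the Tet total in the E4.5 epiblast-like cells (9.31 ± 6.99 CPM per kb) in 4 of 4 embryos and above it in the E6.5 epiblast-like cells (15.1 and 31.98) in 2 of 2. In the E5.5 epiblast-like cells Tdg stood at 13.9, and in the mesoderm-like cells at 38.4 CPM per kb. Tdg in the endoderm-like cells was above the Tet total in 4 of 5 embryos at E4.5 (12.97 ± 5.65 CPM per kb; in embryo 5, 9.25 against 9.70), in the embryo of E5.5 (10.4) and in 2 of 2 at E6.5 (11.6 and 18.2). The annotation that was counted is not given in the sources used here, so these lengths are those of GENCODE M21.

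Cells differed in which Tet genes they held together. Of 19 E4.5 epiblast-like cells, 16 held Tet1 and Tet2 and 4 held all 3 genes. Of 51 E4.5 endoderm-like cells, 35 held Tet1 and Tet2, 5 held Tet2 without Tet1, and 13 held all 3. At E5.5, 32 of 51 epiblast-like cells held 1 Tet gene, 3 held Tet1 with Tet2 and 4 held none. At E6.5, 15 of 23 epiblast-like cells held 2 Tet genes and 6 held 3. Thinned to 50000 reads, 13 of 19 E4.5 epiblast-like cells and 3 of 23 E6.5 epiblast-like cells still held both Tet1 and Tet2.

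Across the cells of 1 group the correlation of the members differed by pair and group, and a few pairs are given. Over the 19 E4.5 epiblast-like cells the correlation of Tet1 with Tet2 was 0.56 and with Tdg 0.09, and over the 51 E5.5 epiblast-like cells it was -0.02 and 0.29. Over the 23 E6.5 epiblast-like cells Tet1 correlated with Tet3 at 0.68 and with Tdg at 0.44. Over the 22 E6.5 endoderm-like cells it did so at 0.53 and 0.64. With the cells thinned to equal depth, the E6.5 epiblast-like values were 0.28 for Tet3 and 0.32 for Tdg. The thinned E6.5 endoderm-like values were 0.15 for Tet3 and -0.05 for Tdg. The pairs of Tet1 with Tet2 and with Tdg, thinned, had 0.60 and 0.04 at E4.5, and -0.10 and 0.27 at E5.5. Cells of a group share their embryos. Tet1 also correlated with the number of detected genes, at 0.68, 0.47, 0.50 and 0.50 in the same 4 groups. The part of detection in the correlations between members was not tested.

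For each member the genes with the most alike pattern were sought over 16 sums of embryo and lineage among 10284 other genes, by Pearson's r of the mean level. These sums share embryos and stages, and r is a description. Tet1 was most like Nup88 (r = 0.97), a nucleoporin, Jarid2 (0.96), a Polycomb protein, Enah (0.92), L1td1 (0.91), an RNA-binding protein of pluripotent cells, and Lig1 (0.91), the replicative DNA ligase. Jarid2 had levels of 8.38 and 4.89 in the epiblast-like and the endoderm-like group of E4.5, and of 6.47 in the E6.5 epiblast-like group. Tet2 was most like Fbxo15 (0.97), known as a marker of undifferentiated pluripotent cells, Foxn2 (0.92), Tcl1 (0.91), a coactivator of Akt, Kyat3 (0.89) and Slc7a1 (0.87), a transporter of basic amino acids. Fbxo15 had levels of 5.28 and 4.83 in the E4.5 lineages and at most 0.84 in each later group. Tet3 was most like Cttnbp2nl (0.93), Zfp334 (0.92), Faap20 (0.92), Fign (0.91) and Nectin1 (0.91), an adhesion protein. Tdg was most like Agap3 (0.92), Tmem161a (0.91), Prps1l3 (0.91), Pola2 (0.90), a subunit of DNA polymerase alpha, and Plk1 (0.89), a mitotic kinase. Among the members themselves Tet3 and Tdg were the most alike (r = 0.65), and Tet1 and Tet2 had an r of 0.36.

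**Figure D5:**
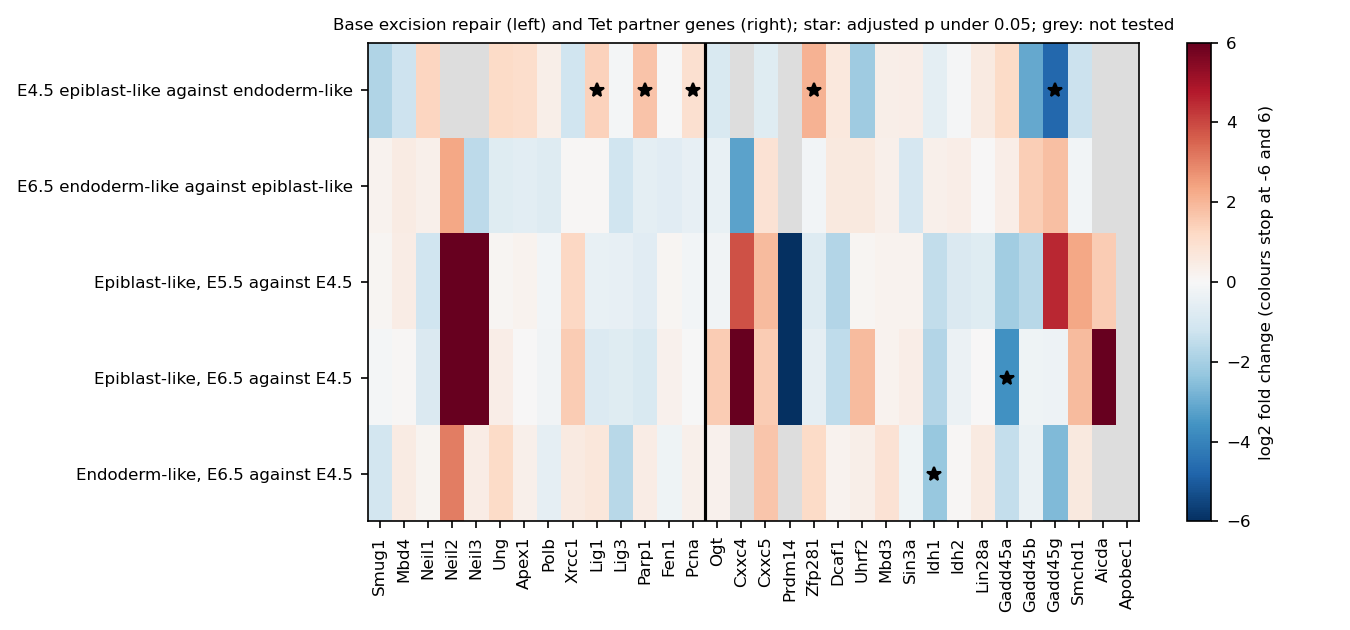
Fitted log2 fold change of 14 base excision repair genes and 18 genes of Tet partners, readers and cofactor supply (columns) in the 5 comparisons (rows). Stars mark an adjusted p under 0.05, grey marks genes not tested, and colours stop at -6 and 6. Of the genes tested, 3 repair genes pass at E4.5, all higher in epiblast-like cells, and 4 of the other list pass over all comparisons.

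Of 14 genes of the base excision repair that follows TET and TDG, 12 were tested between the lineages of E4.5, and 3 were higher in the epiblast-like cells, 0 lower (over all genes, 4.39% were higher and 6.04% lower). Their median log2 fold change was 0.66, against -0.18 over all genes tested. Parp1, which senses strand breaks, was 3.27-fold higher (log2 1.71 ± 0.35 SE, adjusted p = 0.0110). It held 373, 619, 382 and 369 CPM in epiblast-like embryos 1 to 4 and 65.2 to 218 CPM in the 5 endoderm-like embryos, with no overlap. Lig1 was 2.64-fold higher (log2 1.40 ± 0.33 SE, adjusted p = 0.0220). The third was Pcna, the replication clamp, at 0.98 ± 0.28 (log2, SE; adjusted p = 0.0461). Lig1 and Pcna also serve DNA replication. All 3 passed without the 8 cells with few detected genes. Parp1 was lost in 1 of 14 alternatives, without embryo 4 (adjusted p = 0.0521). Lig1 and Pcna were lost when any 1 of the 4 embryos was left out (adjusted p up to 0.0835 and 0.160), and Pcna also with Leiden clusters and with embryo 5 added. The glycosylases Smug1 (log2 -1.81 ± 1.61 SE), Mbd4 (-1.23 ± 1.41) and Neil1 (1.31 ± 2.31), which like Pcna were named after their values were seen, did not pass. In the other 4 comparisons all 14 genes were tested and 0 passed in edgeR. DESeq2 called 1 of them, Parp1, lower and limma 1, Neil3, higher in E6.5 than in E4.5 epiblast-like cells.

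Of 18 genes of Tet partners, readers and cofactor supply, 14 were tested at E4.5, with 1 higher and 1 lower in the epiblast-like cells and a median log2 fold change of -0.34, against 10.4% called and a median of -0.18 over all genes. Zfp281, a zinc-finger protein known to bind Tet1, was 4.26-fold higher (log2 2.09 ± 0.57 SE, adjusted p = 0.0417) and was lost when any 1 of the 4 embryos was left out. Gadd45g, a stress-response gene of a family linked to active demethylation, was 25.9-fold lower (log2 -4.69 ± 0.84 SE, adjusted p = 0.00508). It held 2.71, 0.487, 2.81 and 3.02 CPM in the epiblast-like embryos and 25.8 to 91.2 CPM in the endoderm-like embryos, and it passed in 14 of 14 alternatives (log2 fold changes of -5.09 to -3.23). Gadd45a fell in the epiblast-like cells between E4.5 and E6.5 (log2 -3.65 ± 0.72 SE, adjusted p = 0.0217), from 61.7, 50.6, 76.4 and 99.1 CPM to 7.32 and 5.20 CPM. That call was lost without E4.5 embryo 3, without either E6.5 embryo and with embryo 5 added. Idh1, whose cytosolic enzyme makes the 2-oxoglutarate that TET enzymes need, fell in the endoderm-like cells between E4.5 and E6.5 (log2 -2.29 ± 0.55 SE, adjusted p = 0.0159). It held 110 to 404 CPM in the 5 embryos of E4.5 and 29.8 and 65.6 CPM in those of E6.5, and the call passed in 13 of 17 alternatives, being lost without either E6.5 embryo, with Leiden clusters and with a replicate block. These were 1 of 17 and 1 of 14 genes of the list tested in those comparisons, where 2.57% and 4.91% of all genes were called, and in edgeR none passed between E5.5 and E4.5 or between the lineages of E6.5.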

How the data were processed

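RNA of 264 single cells was analysed; the 267 bisulfite libraries of the labels are not analysed here. The authors deposited raw counts per gene, not normalized; their processing notes name GRCm38, Trim Galore, cutadapt 1.8.1, HISAT2 2.1.0 and featureCounts, with no annotation or counting options. Reads cover whole transcripts, so counts grow with transcript length, and no molecular identifiers were used. Of 22084 identifiers, 21907 matched a GENCODE symbol. Cells were kept at 50000 reads and 2000 genes (217 cells).

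The members, gene lists and tests were chosen with earlier results of these data known. Cells of each stage were clustered (Ward, 4 clusters) on 46 markers, those read in at least 3 cells. A marker was raised where its mean log2(CPM + 1) was at least 3 above the lowest cluster of the stage. A cluster took the name of the list with the largest share raised (at least 3 markers) and no name where another list had at least 50% raised; this rule was written after the clusters were seen. Doublets were not called.

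Counts were summed per embryo and lineage (at least 3 cells) and tested with edgeR 4.0.16 (TMM, filterByExpr, quasi-likelihood, Benjamini-Hochberg, threshold 0.05). Comparisons between lineages had the embryo as a block, so embryo 5 dropped out at E4.5. The lineages of E6.5 were fitted with those of E4.5, and stages within a lineage in 1 fit. SE is the absolute log2 fold change over the root of F. The procedure was tested on simulated counts. Alternatives were DESeq2 1.42.0, limma 3.58.1 on mean log2(CPM + 1), RLE factors, no filter, cells of at least 200000 reads and 4000 genes, Leiden clusters (scanpy 1.11.5), blocks and each embryo left out. Sums of at least 2 cells, and leaving out named clusters with a median under 4000 genes (19 cells), were added after seeing the data, as was the test of the lineage effect between stages.

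Named genes were the 4 members, the 5 genes most alike to each among genes with at least 10 CPM in a group, and the 2 list genes past the threshold with the largest change each way; exceptions are named as such. For E4.5 the paper's text counts 4 embryos and the labels number 5. The labels were followed, and whether each number is a separate embryo was not tested. Nothing states more than embryo as the source of a cell, so p-values measure the spread between these embryos. The edgeR fits had 3 to 5 residual degrees of freedom. They drew the spread of a gene in part from all genes tested.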

Additional observations from a re-analysis of the deposited data

Results flagged for a closer look

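Of 16 groups of embryo values examined (4 members in the E4.5 lineages, as level and as CPM), 1 held an embryo whose gap to its nearest neighbour, as a share of the range of the group, passed Dixon's critical value at the 95% level, which chance gives in about 1 in 20 groups. Tet3 in the endoderm-like cells of E4.5 embryo 5 stood at 39.5 CPM of summed reads, against 1.72 to 9.31 CPM in the other 4 embryos. Of its 819 Tet3 reads, 589 (71.9%) came from 1 of 14 cells, a cell with 3813 detected genes, and the other 13 cells gave 12.7 CPM. On the mean level, where each cell weighs alike, embryo 5 was at 2.21 and did not stand apart.

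Cells that took no lineage name enter none of the comparisons but held reads of the members. The 5 E4.5 cells with raised markers of both epiblast and endoderm had a mean Tet1 level of 8.12 (7.08 to 9.28), within the range of the 19 epiblast-like cells (6.20 to 9.44), with Tet2 at 5.98, Tdg at 5.25 and Tet3 at 0 in all 5. The 15 unnamed cells of E6.5, with a median of 6085 genes, had a mean Tet1 level of 3.59 and held Tet1 in 13 cells and Tet2 in 1.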

How the results depend on the processing

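Of 347 fold changes of the members under alternatives, 320 kept their direction and side of the threshold, 8 passed only there, 7 were lost and 12 turned sign; of 188 levels 172 moved by less than the SD over embryos (over cells for groups of 1 embryo), and of the 16 that did not, 9 came from a pseudocount of 0.1, 4 from thinning and 3 from Leiden clusters. Median fold changes moved by under 0.1 with RLE factors. Few embryos, 1 at E5.5 and 3 endoderm-like cells in an E6.5 embryo limit each test, the cause of the changes below was not tested, and an SD of levels includes cell sampling.

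Between the lineages of E4.5 (962 genes), DESeq2 called 2296 genes, limma 2016 and the fits without 1 embryo 532 to 611. Tet2 turned to -0.46 with sums of at least 2 cells and ranged from -0.42 to 0.89 without 1 embryo (-0.07 without replicate 2, -0.42 without replicate 4). Tet3 turned to -0.90 with Leiden clusters, -0.28 with limma, -0.66 with sums of at least 2 cells and ranged from -0.44 (without replicate 1) to 0.88 without 1 embryo; it was not tested without replicate 4, where it missed the filter. Between the lineages of E6.5 (0 genes), DESeq2 called 36 genes, the fit without a filter 23, that without a replicate block 1 and those without 1 embryo 0 to 2 (2 without E6.5 replicate 2), and Tet2 ranged from -5.15 to -0.94.

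Between E6.5 and E4.5 epiblast-like cells (335 genes), DESeq2 called 1144 genes, no filter 790 (415 higher, 375 lower), limma 2082, sums of at least 2 cells 197 and the fits without 1 embryo 125 to 328 (214 without E4.5 replicate 3, 146 and 125 without E6.5 replicates 1 and 2). Tet1 was -2.29 to -1.86 without 1 embryo and lost without E6.5 replicate 1. Tet2 was -5.20 and lost with sums of at least 2 cells, and -6.73 to -4.86 without 1 embryo. Tet3 passed with limma (2.93). Between E5.5 and E4.5 (63 genes), DESeq2 called 534 genes (128 higher, 406 lower), no filter 222 (130 and 92), limma 131 (13 and 118), sums of at least 2 cells 20 and the fits without 1 embryo 15 (without E4.5 replicate 3) to 74. Tet1 passed with DESeq2 (-1.48) and limma (-2.83), Tet2 with DESeq2 (-6.82) and no filter (-6.73), and Tet3 was -0.025 with limma.

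Between E6.5 and E4.5 endoderm-like cells (661 genes), DESeq2 called 1103 genes, no filter 1057, Leiden clusters 149, limma 1690 and the fits without 1 embryo 212 to 834 (212 and 221 without E6.5 replicates 1 and 2). Tet1 ranged from -0.35 (without E6.5 replicate 2) to 0.71, Tet2 was lost with Leiden clusters (-4.38) and ranged from -12.02 (without E6.5 replicate 1, where no E6.5 read was left) to -5.50, and Tet3 turned to 0.60 with limma and ranged from -1.27 to 0.42 (without E4.5 replicate 5) without 1 embryo. Leiden clusters named no epiblast-like cells at E5.5 and E6.5, so the other stage comparisons and that of the E6.5 lineages were not run with them.

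Embryo numbers are shared between stages, but same-numbered embryos are different embryos, and the correlation of their deviations was -0.07 to -0.00072, so they share only a number. A replicate block on the number gave 574 epiblast-like and 424 endoderm-like genes between E6.5 and E4.5. Under it Tet2 was -4.73 and -6.42, Tet1 -1.88 in the epiblast-like cells, and Tet3 turned to 1.47 in the endoderm-like cells.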

Other observations

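Gadd45g, which was lower in the epiblast-like than in the endoderm-like cells of E4.5, stood at 49.6 CPM in the summed epiblast-like cells of the E5.5 embryo, against 0.487 to 3.02 CPM in the 4 embryos of E4.5 and 1.26 and 2.79 CPM in the 2 of E6.5. The difference of E5.5 from E4.5 (log2 4.52 ± 1.42 SE, adjusted p = 0.246 in edgeR's quasi-likelihood test) did not pass and rests on 1 embryo. In the endoderm-like cells Gadd45g held 21.5 CPM at E5.5, and 11.4 and 2.85 CPM at E6.5. This gene was chosen for this description after its values were seen.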
